A study of Mus musculus with 8 samples.

Results

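Satb1, Nrk, Zdhhc2, Alox12e, Csta2, Lgals2, Tlcd4, Adgrf5, Adam22 and Crybg1 are 10 of the 19938 mouse genes measured on these arrays. All 10 were brighter in spermatogonial stem cell cultures kept for 14 to 18 months than in cultures kept for 7 to 10 weeks. They were chosen by that difference, on these same arrays, so the values of short and long culture are given for them as a description, with no test. Each gene was read from its brightest probe set that carries its symbol alone, and no filter on low values was applied, so all 10 are described. Ranked by the difference between long and short culture of young donor cells, they hold places from 1 (Nrk) to 78 (Crybg1) among all genes, and genes ranked between them are not described here.

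The series compares stem cells of the mouse male germline that had aged in culture, or in the animal and in culture, on 8 Affymetrix arrays. The young short-culture group (n = 3) came from donors 8 days old and was cultured for 7 to 10 weeks. The young long-culture group (n = 3) came from donors of the same age and was cultured for 14 to 18 months. The serial transplant group (n = 2) came from serial transplants with a donor age given as 1500 days and was also cultured for 14 to 18 months. Every sample had been in culture, so cells taken straight from a testis are not part of any comparison. In the serial transplant group, donor age and the transplantations cannot be told apart. The labels do not say whether replicates came from separate donors or cultures, so the p-values speak only for the scatter among arrays, and that scatter could be technical.

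Spermatogonial stem cells are the cells of the seminiferous tubule that renew themselves and feed sperm production throughout adult life. In culture they grow as clumps that depend on GDNF, usually on a layer of feeder cells, and their stem cell content is measured by transplantation into a recipient testis. The 10 genes do not form a pathway. They encode a chromatin organiser (Satb1), a Ste20-type kinase (Nrk), a palmitoyltransferase (Zdhhc2), a lipoxygenase (Alox12e), a cysteine protease inhibitor (Csta2), a galectin (Lgals2), a membrane protein with a TLC domain (Tlcd4), an adhesion G protein-coupled receptor (Adgrf5), a surface receptor of the ADAM family (Adam22) and a protein with crystallin-like domains (Crybg1). Each is set beside a list of its own relatives, chosen by function or fold.

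Values are RMA signals on the log2 scale, so a step of 1 is a doubling. The median probe set lies at 6.94 and the lower quartiles of the arrays lie between 5.32 and 5.52. RMA gives no detection call, and a low signal may be background. Signals of different genes come from different probes and are not set against each other. The germline label was checked against marker genes. Ddx4, an RNA helicase of germ cells, was bright in every group, at 11.75 ± 0.26 (SD, n = 3) in young short culture, 11.40 ± 0.47 (n = 3) in young long culture and 11.96 ± 0.02 (n = 2) in the serial transplant group. Gfra1, the GDNF receptor of undifferentiated spermatogonia, measured 11.33 ± 0.18, 11.51 ± 0.22 and 11.37 ± 0.07 in the same order. The list of undifferentiated spermatogonia that holds it was mixed: its mean ran from 9.25 to 9.62 over the young short arrays and from 9.33 to 9.43 over the young long arrays and was 9.45 on both serial transplant arrays, and of 16 genes 2 rose (Ret and Lin28a) and 4 fell between the young groups. Those that fell are the transcriptional regulators Lhx1, by 1.30 (adjusted p = 0.00626, limma), Bcl6b, from a mean of 10.75 to 9.75 (adjusted p = 0.005), and Id4, by 0.80 (adjusted p = 0.00353), and the surface protein Thy1, by 0.47. Kit, a receptor tyrosine kinase of differentiating spermatogonia, rose from 8.90 ± 0.38 to 10.31 ± 0.05 between short and long culture of young donor cells (adjusted p = 0.00123, limma with Benjamini-Hochberg adjustment) and measured 10.11 ± 0.08 in the serial transplant group.

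Markers of other cell types differed between the groups as well. The mean signal of 13 measured fibroblast markers ran from 10.09 to 10.62 over the young short arrays, from 9.47 to 9.50 over the young long arrays and from 8.92 to 9.52 over the serial transplant arrays, with 10 of the 13 lower in young long culture, none higher, and Lum in the lower quartile on every array. Macrophage markers ran from 6.20 to 6.60, from 5.64 to 5.69 and from 5.63 to 5.70, with 4 of 11 lower and none higher, and Adgre1 and Itgam in the lower quartile throughout. Leydig cell markers ran from 6.10 to 6.55, from 5.41 to 5.50 and from 5.48 to 5.53, with 3 of 5 lower and none higher. Sertoli cell markers ran from 6.83 to 6.88, from 6.91 to 7.02 and from 6.80 to 6.94, with 2 of 9 higher (Wt1 and Aard) and none lower. Their median difference between the young groups was -0.08, and Sox9 differed by -0.56 (adjusted p = 0.0763, limma). Simple epithelium markers ran from 7.12 to 7.44, from 7.42 to 7.55 and from 7.62 to 7.79, with 2 of 10 higher, none lower and a median difference of -0.02 between the young groups. The list kept for differentiating spermatogonia ran from 8.57 to 8.89, from 9.16 to 9.35 and from 9.31 to 9.41, with 7 of 9 higher and 1 lower. Kit, Stra8, Sohlh2, Dmrtb1, Nanos3, Rhox13 and Neurog3 were higher and Sohlh1 was lower. These counts are limma calls at an adjusted p under 0.05, by which 6.1% of all genes were higher and 6.69% lower in young long culture. Markers of core germ cells ran from 9.77 to 10.03, from 9.80 to 10.13 and from 10.30 to 10.38. By the same rule 3 of 8 were higher in young long culture (Dazl, Tex101 and Tex14) and none lower. The part of these marker changes in the levels of the 10 genes was not tested, and in bulk RNA more cells of a type and more RNA per cell cannot be told apart.

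All 10 genes had every young long array above every young short array, as did 16.2% of all genes. They were selected on this contrast, so nothing is read from that count. Their differences between the 2 young groups ran from 0.99 to 1.93 with a median of 1.54, against a median of -0.04 over all genes. In all 10, both serial transplant arrays also lay above every young short array, as did 19.8% of all genes; the differences from young short culture ran from 0.83 to 1.89 with a median of 1.43. The latter contrast reuses the short-culture arrays on which the genes were chosen, so it is a description too. The groups did not split the same way in each gene. The serial transplant arrays lay above all young long arrays in 4 genes (Zdhhc2, Adgrf5, Adam22 and Crybg1), below all of them in 3 (Satb1, Nrk and Csta2), and overlapped them in 3 (Alox12e, Lgals2 and Tlcd4). How many of all genes split in these ways was not counted, so nothing is read from these counts. Some gaps were narrow. The highest young long and lowest serial transplant signals were 8.33 and 8.35 for Zdhhc2, 7.90 and 7.94 for Adgrf5, and 9.06 and 9.09 for Crybg1.

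**Figure D1:**
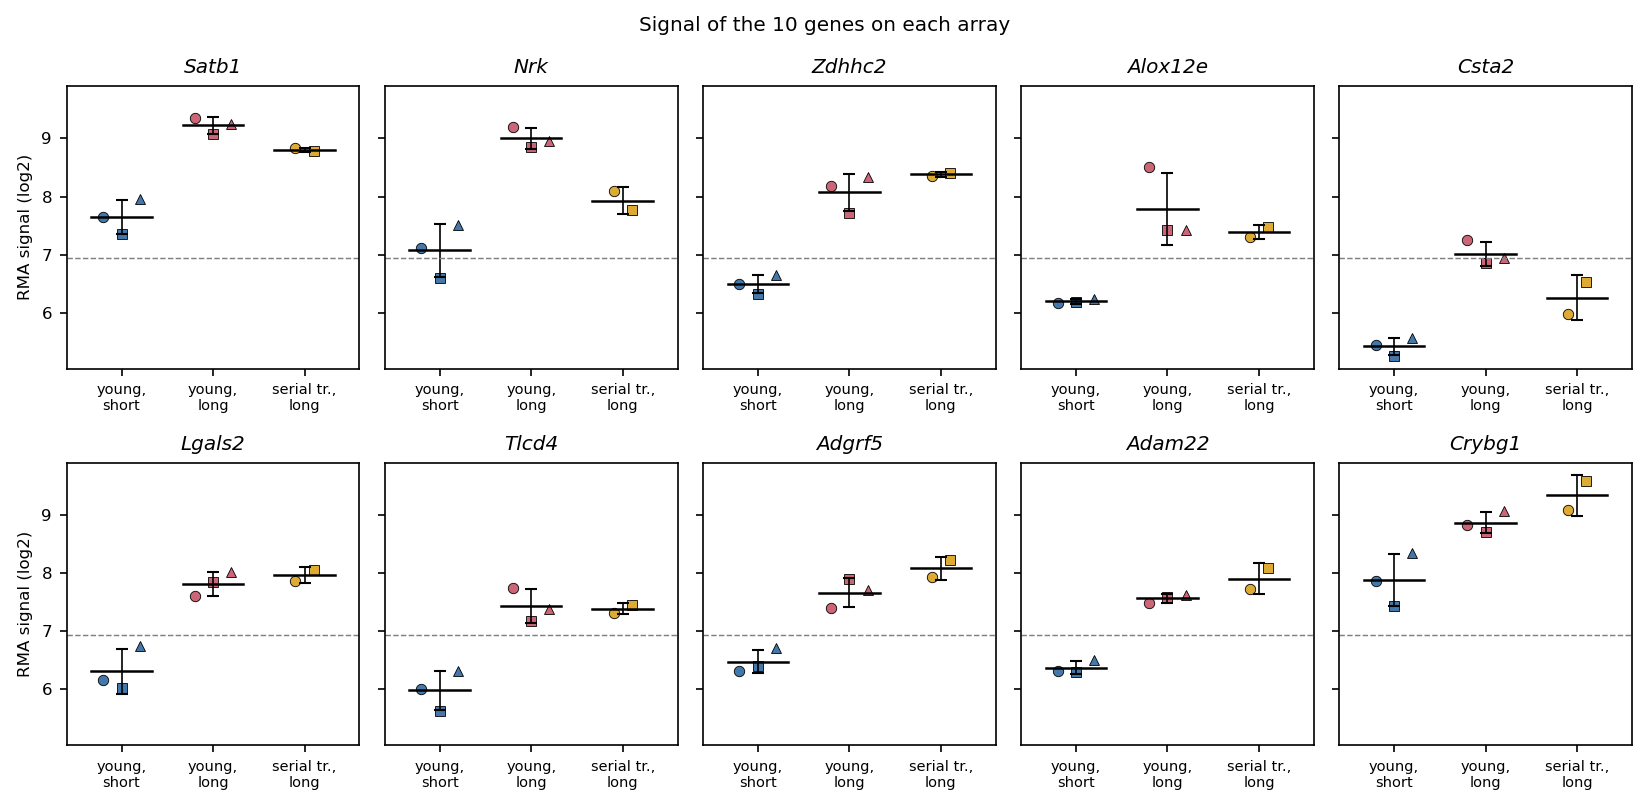
RMA signal (log2) of the 10 genes on each of the 8 arrays, by group (circle, square and triangle are replicates 1, 2 and 3; bar, group mean; whisker, SD; dashed line, the median probe set at 6.94). Short-culture arrays are the lowest in every panel, and the serial transplant arrays sit above, within or below the young long arrays depending on the gene.

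The sequence before the start site of the genes differed widely in CpG content. RefSeq promoter windows of GRCm38.p6 (250 bases before a start and 50 after) were found for 9 of the 10 genes, 17 windows in all, some of which overlap within a gene; Zdhhc2 has no entry. The 5 genes with 1 listed start are printed to show that range, each as the 250 bases before the start on the gene's own strand, 5′ to 3′, with every CG dinucleotide in capitals. They lie at chrX:138914180-138914429 (Nrk, + strand), chr5:8368161-8368410 (Adam22, - strand), chr15:78855530-78855779 (Lgals2, - strand), chr16:36221312-36221561 (Csta2, + strand) and chr11:70322531-70322780 (Alox12e, - strand).
Nrk: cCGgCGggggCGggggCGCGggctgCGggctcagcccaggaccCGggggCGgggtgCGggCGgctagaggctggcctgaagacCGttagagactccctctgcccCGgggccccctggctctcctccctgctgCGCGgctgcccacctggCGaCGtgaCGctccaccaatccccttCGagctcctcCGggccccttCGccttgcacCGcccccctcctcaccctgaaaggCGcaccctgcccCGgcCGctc
Adam22: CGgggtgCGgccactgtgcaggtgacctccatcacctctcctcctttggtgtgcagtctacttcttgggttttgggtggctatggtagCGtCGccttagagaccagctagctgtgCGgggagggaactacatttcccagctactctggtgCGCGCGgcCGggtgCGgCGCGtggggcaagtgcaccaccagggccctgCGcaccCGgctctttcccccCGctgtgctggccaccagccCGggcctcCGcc
Lgals2: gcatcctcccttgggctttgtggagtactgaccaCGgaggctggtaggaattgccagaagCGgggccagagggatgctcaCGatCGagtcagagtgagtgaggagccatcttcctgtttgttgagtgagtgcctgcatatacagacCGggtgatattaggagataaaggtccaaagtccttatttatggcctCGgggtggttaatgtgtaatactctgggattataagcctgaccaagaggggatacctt
Csta2: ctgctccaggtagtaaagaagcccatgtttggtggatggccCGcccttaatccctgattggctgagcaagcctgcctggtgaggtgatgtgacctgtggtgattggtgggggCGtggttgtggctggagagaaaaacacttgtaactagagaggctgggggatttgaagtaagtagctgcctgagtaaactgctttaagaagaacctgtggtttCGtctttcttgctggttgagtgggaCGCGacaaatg
Alox12e: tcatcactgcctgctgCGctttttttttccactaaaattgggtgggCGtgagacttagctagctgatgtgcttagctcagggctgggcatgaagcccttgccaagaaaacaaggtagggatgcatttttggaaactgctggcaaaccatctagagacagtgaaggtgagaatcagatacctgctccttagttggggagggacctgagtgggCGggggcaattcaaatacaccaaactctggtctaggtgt
The stretch before Nrk holds 24 CG dinucleotides and that before Adam22 holds 17, against 6 before Lgals2, 5 before Csta2 and 3 before Alox12e. The listed start is the outermost RefSeq start of the gene for Lgals2 and Csta2, but not for Nrk, Adam22 and Alox12e.

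Over the full 300 bases, the Nrk window holds 31 CG dinucleotides, more than 89.4% of the 32851 mouse promoter windows, and the Alox12e window holds 3, more than 23.3% of them, where the median window holds 7. Short motifs were searched on both strands of the windows. The TATA box letters TATAAA occur in 0 of the 17 windows and in 13.6% of all windows, and TGANTCA, the AP-1 letters, in 0 of 17 and in 7.81% of all. The letters CCAAT occur in 5 of the 17 windows (37.4% of all) and GGGCGG, the GC box, in 7 (35.7% of all). CACGTG, an E box, occurs in 1 of 17, the upstream window of Tlcd4 (7.15% of all). These matches describe letters in these windows, not sites in use.

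Satb1 encodes a nuclear protein that binds AT-rich DNA at the bases of chromatin loops, best known from thymocytes. It measured 7.65, 7.36 and 7.95 on the young short arrays, 9.36, 9.07 and 9.25 on the young long arrays, and 8.83 and 8.78 on the serial transplant arrays. Long culture lies above short culture with a gap of 1.12 between the nearest arrays, and the serial transplant arrays lie between the 2 young groups without overlap. The young groups differed by 1.57 ± 0.14 (SE), a 2.98-fold difference, and the serial transplant group lay 1.15 ± 0.16 above young short culture. Of 18 measured relatives that organise chromatin (other CUT-domain proteins, CTCF and cohesin), 3 rose in young long culture and 0 fell, with a median of 0.13. The 3 that rose belong to cohesin or its handling. Rad21, the cohesin subunit cleaved when sister chromatids part, rose by 0.47 ± 0.11 (adjusted p = 0.0222, limma). Nipbl, which loads cohesin, rose by 0.40 and Wapl, which releases it, by 0.41, though none of these 3 calls held in all 8 fits that leave out an array.

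Nrk, an X-linked kinase of the germinal centre kinase group of Ste20 enzymes known from the placenta, ranked 1 of 19938 genes by signed difference, the largest increase. Its signals were 7.12, 6.60 and 7.51 in young short culture, 9.20, 8.85 and 8.96 in young long culture, and 8.09 and 7.77 in the serial transplant group. The 3 groups do not overlap, with serial transplant cultures in the middle. The young groups differed by 1.93 ± 0.20, or 3.81-fold, while the serial transplant group stood 0.86 ± 0.22 above young short culture, rank 141 of all genes. Among 16 measured Ste20 relatives, 2 rose and 0 fell. Stk26, a kinase of the same group, rose by 0.65 ± 0.14 (adjusted p = 0.014, limma) and Stk39, which acts on ion cotransporters, by 0.42 ± 0.09 (adjusted p = 0.0174). Neither held in every fit that leaves out an array. Map4k4, another kinase of that group, differed by 0.05 ± 0.12 (adjusted p = 0.839).

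Zdhhc2 encodes an enzyme that attaches palmitate to cysteines of membrane proteins. Signals of 6.50, 6.33 and 6.65 in young short culture stand against 8.18, 7.72 and 8.33 in young long culture and 8.35 and 8.41 in the serial transplant group. Short culture lies below the median probe set and all 5 long-culture arrays lie above it, the serial transplant arrays highest. Young long and young short culture differed by 1.58 ± 0.15 (2.99-fold), and the serial transplant group stood 1.89 ± 0.17 (3.70-fold) above young short culture, rank 3 of all genes. Of 30 measured enzymes that add or remove palmitate, 2 rose and 2 fell, with a median of 0.00. Zdhhc15, a close relative of Zdhhc2, rose by 0.86 ± 0.17 (adjusted p = 0.00977, limma), from 6.81 ± 0.37 to 7.67 ± 0.18 (SD, n = 3 each), the largest rise among all 210 relatives measured. Lypla1, a depalmitoylating thioesterase, rose by 0.49 ± 0.10 (adjusted p = 0.0136), while Zdhhc24 fell by 0.42 and Zdhhc4 by 0.34. Leaving out an array took Zdhhc15 to an adjusted p of 0.0524 at most, and its call was lost in 1 of 8 fits. Lypla1 and Zdhhc24 were called in 6 of the 8 and Zdhhc4 in 0.

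Alox12e encodes the epidermal 12-lipoxygenase, which oxygenates arachidonic acid. It read 6.16, 6.19 and 6.24 in young short culture, 8.51, 7.43 and 7.42 in young long culture, and 7.30 and 7.48 in the serial transplant group. Short-culture signals are nearly equal, and replicate 1 of young long culture stands well above the other 2. Between the young groups the difference was 1.59 ± 0.23 (3.02-fold), and by 1.23 without that array. The serial transplant group, which overlaps young long culture, stood 1.19 ± 0.26 above young short culture. The gene lies in a cluster of lipoxygenase genes, and no rise was measured in its neighbours Alox12 and Alox15. Alox12, the platelet type, differed by -0.00 between the young groups and Alox15 by 0.00, with adjusted p-values of 0.993 and 0.999 (limma). Alox12 was low, with means of 5.05 in young short, 5.05 in young long and 4.99 in serial transplant culture. These means lie under 5.32, the lowest of the arrays' lower quartiles. They may be background, so whether Alox12 changed cannot be told. Alox15, at 6.53, 6.53 and 6.46 in the same order, lay above the range of these quartiles but below the median probe set. Of 20 measured eicosanoid enzymes 1 rose and 1 fell: Alox12b, a lipoxygenase of the skin barrier, rose by 0.47 ± 0.14 (adjusted p = 0.0488), and Pla2g4a, the phospholipase that releases arachidonic acid, fell by 0.87 (adjusted p = 0.0213). Both calls were lost in some fits that leave out an array. Markers of stratified epithelium, the tissue in which this enzyme is best known, ran from 5.67 to 5.87 over all 8 arrays, 0 of 12 lay above the median on every array, and 4 (Krt1, Ivl, Dsg3 and Sprr1b) were in the lower quartile on every array. Sprr1a read 7.40, 8.01 and 7.40 in young short culture, above the median probe set, and fell by 0.64 in young long culture (adjusted p = 0.0479, limma), the only call in that list.

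Csta2 encodes a stefin A, a small inhibitor of cysteine cathepsins. It was low in young short culture at 5.44, 5.26 and 5.56, and read 7.25, 6.86 and 6.94 in young long culture and 5.98 and 6.53 in the serial transplant group. The mean in short culture, 5.42 ± 0.15, is within the range of the arrays' lower quartiles, so it may be background, and the difference of 1.59 ± 0.15 (3.02-fold) would then be a lower bound. The serial transplant arrays lie between the young groups, 0.83 ± 0.17 above young short culture. Csta2 sits in a cluster of near-identical stefin genes, and signal from probes they share cannot be assigned with certainty. Csta1, Csta3, Stfa2 and Stfa3 had group means between 3.01 and 4.43, with differences between the young groups of -0.25, -0.20, 0.16 and -0.11, none of which passed. Cstb, the stefin of most tissues, differed by -0.15 (adjusted p = 0.658, limma).

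Several cathepsins, the proteases that stefins inhibit, were lower in long culture. Among 24 measured cystatins and cysteine cathepsins, 5 fell and 1 (Ctsf, by 0.54) rose, with a median of -0.16. Ctsb fell from 11.25 ± 0.31 to 10.44 ± 0.11 (SD, n = 3 each; adjusted p = 0.0123, limma), Ctsw by 0.81 (adjusted p = 0.00659), and Ctsz by 0.47 (adjusted p = 0.0181). Cst7, a cystatin of immune cells, fell by 1.43 ± 0.28 (adjusted p = 0.0101). The calls of Ctsb, Ctsw and Cst7 held in all 8 fits that leave out an array, and that of Ctsz in 5. The count of risers in the list, 1 with all arrays, was 0 in 5 of the 8 fits, so the call of Ctsf was lost in at least these. Macrophage and fibroblast markers fell over the same arrays, and their part in these changes was not tested. Neutrophil markers, a cell type in which mouse stefins are abundant, ran from 4.86 to 5.14 over all 8 arrays, with 6 of 10 in the lower quartile on every array.

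**Figure D2:**
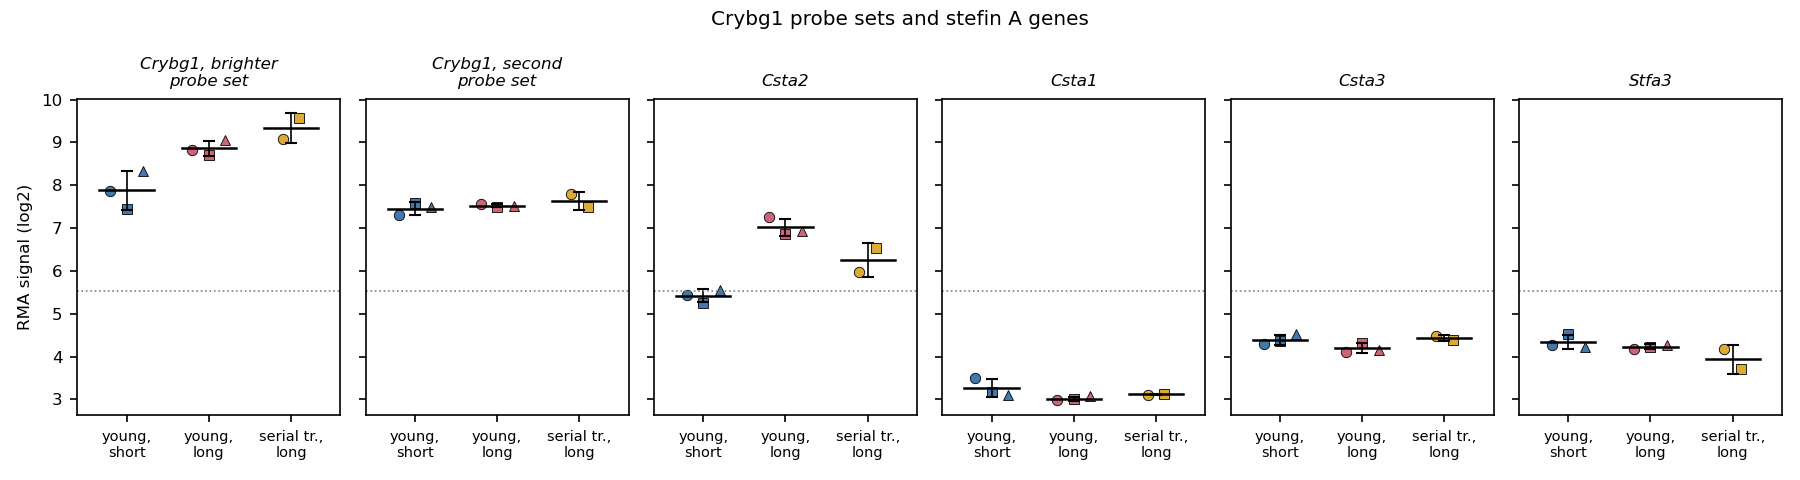
RMA signal (log2) of both Crybg1 probe sets, of Csta2 and of 3 other stefin A genes, on each array by group (bar, group mean; whisker, SD; dotted line, the highest of the arrays' lower quartiles, 5.52). Of the Crybg1 probe sets only the brighter separates long from short culture, Csta2 separates them too, and Csta1, Csta3 and Stfa3 stay below the dotted line on every array.

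Lgals2 encodes galectin-2, a small lectin that binds beta-galactosides and is known from the gut. Short-culture signals of 6.15, 6.02 and 6.75 compare with 7.60, 7.84 and 8.01 in young long culture and with 7.87 and 8.06 in the serial transplant group. Long-culture arrays of both donor kinds overlap and all exceed short culture. Young donor cultures differed by 1.51 ± 0.18 (2.84-fold), and the serial transplant group stood 1.66 ± 0.20 (3.15-fold) above young short culture. Its relatives showed no rise. Of 10 measured relatives (galectins and the galectin ligand Lgals3bp), 0 rose and 6 fell, with a median of -0.46. Lgals3bp fell from 10.05 ± 0.40 to 8.84 ± 0.09 (SD, n = 3 each; adjusted p = 0.00557, limma) and Lgals1, a galectin abundant in stromal cells, fell from 12.65 ± 0.25 to 11.97 ± 0.12 (adjusted p = 0.00869). Lgals8 fell by 0.74 (adjusted p = 0.0313) and Lgals4 by 0.40 (adjusted p = 0.0455). The count of 6 drops to 3 when each array is centred on its median or quantile normalised. It drops to between 2 and 5 when an array is left out. Of these latter 8 fits, Lgals3bp and Lgals1 were called in all, Lgals8 in 4 and Lgals4 in 1. Fibroblast markers fell over the same arrays, and their part in the galectin changes was not tested.

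Tlcd4 encodes a membrane protein with the TLC domain found in ceramide synthases. It measured 6.00, 5.63 and 6.31 in young short culture, 7.74, 7.17 and 7.38 in young long culture, and 7.32 and 7.45 in the serial transplant group. Long-culture arrays of both kinds overlap, all above short culture. The differences from young short culture were 1.45 ± 0.18 (2.73-fold) in young long culture and 1.41 ± 0.20 (2.65-fold) in the serial transplant group. Of 14 measured relatives with that domain, 1 rose and 2 fell. The 2 that fell make ceramides: Cers4 by 0.64 (adjusted p = 0.0048, limma), called in all 8 fits that leave out an array, and Cers2 by 0.64 (adjusted p = 0.0134), called in 7. Tram1l1, a relative of the translocon protein TRAM, rose by 0.44 (adjusted p = 0.0455) and was called in 1 such fit.

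Adgrf5, an adhesion G protein-coupled receptor known from lung epithelium and endothelium, measured 6.32, 6.40 and 6.71 in young short culture, 7.39, 7.90 and 7.70 in young long culture, and 7.94 and 8.22 in the serial transplant group. The 3 groups do not overlap, and the serial transplant arrays are highest, 1.60 ± 0.17 (3.03-fold) above young short culture. The young groups differed by 1.19 ± 0.15 (2.28-fold). Endothelial markers ran from 6.07 to 6.29 over all 8 arrays, with 0 of 10 above the median on every array and 0 of 10 called higher or lower. Of the 10 simple epithelium markers, Muc1 rose from a mean of 7.04 to 8.54 (adjusted p = 0.00418, limma) and Krt18 by 0.71 (adjusted p = 0.0431) between the young groups. They were the only calls in that list, whose median difference was -0.02. Without a call, Krt8 (-0.16), Krt7 (-0.23), Cldn3 (-0.13), Cldn4 (-0.09) and Cldn7 (-0.10) were lower. Krt19 (0.61), Epcam (0.38) and Cdh1 (0.04) were higher. The part of these markers in the level of Adgrf5 was not tested. Of 27 measured adhesion receptors 3 rose and 2 fell, with a median of 0.05. Celsr2, a receptor of planar cell polarity, rose by 0.80 ± 0.14 (adjusted p = 0.00715, limma) and Adgrb3 by 0.54 ± 0.10 (adjusted p = 0.00835). Adgrl3, a latrophilin, fell from 8.26 ± 0.27 to 6.93 ± 0.24 (SD, n = 3 each; adjusted p = 0.00132) and Adgra2 fell by 0.82 (adjusted p = 0.00383). All 4 calls held in the 8 fits that leave out an array. Adgrf4, of the same subfamily as Adgrf5, had group means between 4.17 and 4.28 and differed by 0.11 ± 0.12 (adjusted p = 0.58).

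Adam22 encodes a surface protein of the ADAM family that lacks protease activity and binds the secreted protein LGI1 in the nervous system. It read 6.31, 6.30 and 6.51 in young short culture, 7.48, 7.59 and 7.62 in young long culture, and 7.72 and 8.09 in the serial transplant group. Again the groups do not overlap and the serial transplant arrays are highest. Long exceeded short culture of young donor cells by 1.19 ± 0.12 (2.28-fold), and the serial transplant group stood 1.53 ± 0.13 (2.88-fold) above young short culture. Of 36 measured ADAM and LGI genes 1 rose and 4 fell. Adam23, which also lacks protease activity and binds LGI proteins, fell by 0.87 (adjusted p = 0.0321, limma), and Adam8 fell by 0.72 (adjusted p = 0.00498), Adam9 by 0.54 and Adam15 by 0.46. The gene that rose was Lgi2, a relative of LGI1, by 0.42 (adjusted p = 0.0421). Of these, Adam8 was called in all 8 fits that leave out an array, Adam23 and Adam9 in 5 and Adam15 in 3. The count of risers in this family was 0 in 7 of those 8 fits, so the Lgi2 call was lost in at least these, and it was also 0 in the fit of the young groups alone.

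Crybg1 encodes a large protein with beta gamma crystallin domains that has been linked to the actin cytoskeleton. Its brighter probe set measured 7.86, 7.44 and 8.34 in young short culture, 8.83, 8.71 and 9.06 in young long culture, and 9.09 and 9.58 in the serial transplant group. The groups are separate, but the gap of 0.37 between the nearest short and long arrays is the smallest of the 10 genes. Long and short culture of young donor cells differed by 0.99 ± 0.20 (1.99-fold), and the serial transplant group stood 1.46 ± 0.23 (2.74-fold) above young short culture. The other Crybg1 probe set did not share the pattern: it read 7.30, 7.58 and 7.49, then 7.57, 7.49 and 7.52, then 7.79 and 7.49, a difference of 0.07 between the young groups. Averaged over both probe sets the difference was 0.53. Crybg1 is alone among the 10 genes in having more than 1 such probe set. Among 15 measured crystallin relatives, Crybg3, another large protein of this kind, rose from 8.03 ± 0.14 to 8.81 ± 0.21 (SD, n = 3 each; adjusted p = 0.00537, limma) and measured 9.11 ± 0.17 (n = 2) in the serial transplant group; none fell. That call held in all 8 fits that leave out an array.

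Counted over all the lists, 210 of 230 relatives were measured. In young long culture 15 of them rose (7.14%, against 6.1% of all genes) and 22 fell (10.5%, against 6.69% of all genes), with a median difference of -0.06. The largest rise, 0.86, is below the smallest difference among the 10 genes, 0.99, a value on which those were chosen. The total of 37 calls fell to 16 without young long replicate 1, 12 without young long replicate 3, 24 without young long replicate 2 and 23 without young short replicate 1. Leaving out an array also lowers the number of samples. Of the 31 relatives named by rule that passed, 12 were called in all 8 of those fits.

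**Figure D3:**
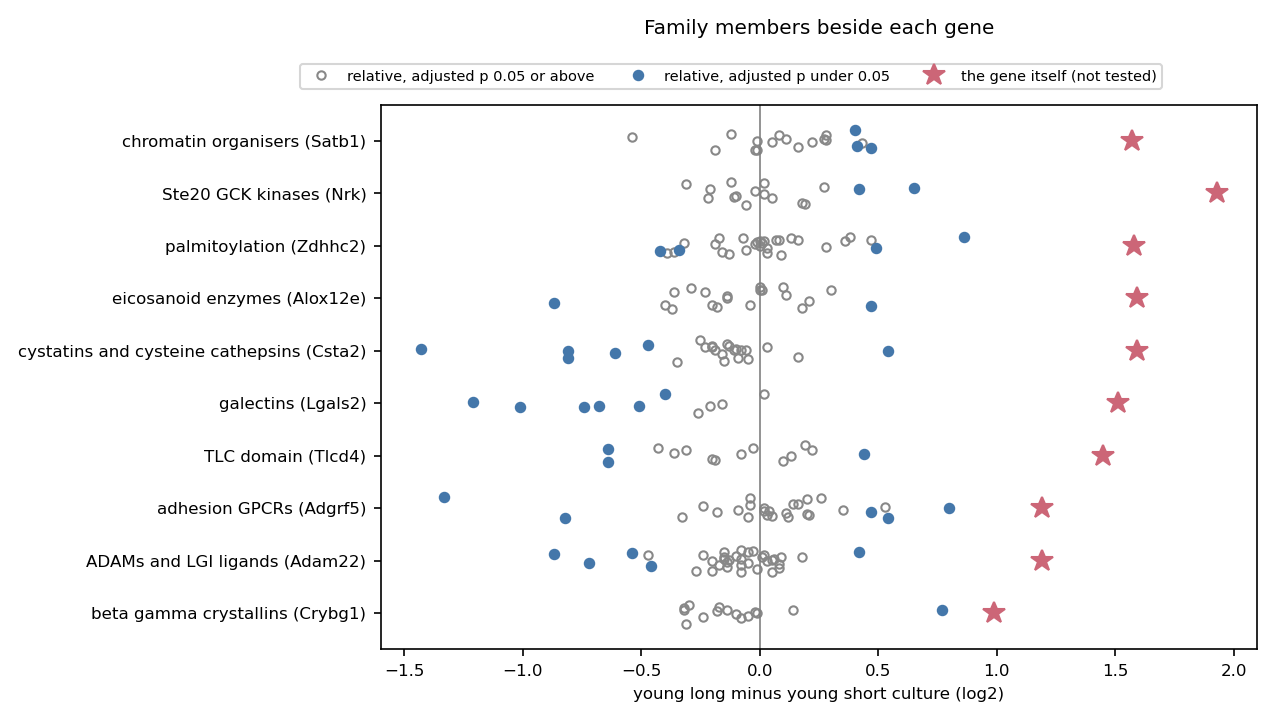
Difference between young long and young short culture (log2) of each measured relative, by family, with the gene the family belongs to as a star. Filled circles passed limma at an adjusted p under 0.05; the relatives run from -1.43 to 0.86 and the 10 genes, chosen on this difference, from 0.99 to 1.93.

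The serial transplant and young long groups share their culture time and differ in donor. None of the 10 genes differed between them at an adjusted p under 0.05 in limma, and 0% of all 19938 genes did. At an unadjusted p under 0.05, 5 of the 10 differed, against 7.21% of all genes. The contrast shares the young long arrays on which the 10 were chosen. For Nrk the serial transplant group lay lower by a log2 difference of -1.07 (95% interval -1.56 to -0.59, adjusted p = 0.319). For Csta2 the difference was -0.76 (-1.14 to -0.38, adjusted p = 0.359) and for Satb1 it was -0.42 (-0.77 to -0.07, adjusted p = 0.611). These 3 were lower on both serial transplant arrays than on any young long array. In the opposite direction, Adgrf5 differed by 0.41 (0.04 to 0.78, adjusted p = 0.65) and Adam22 by 0.34 (0.05 to 0.63, adjusted p = 0.621). The intervals of the other 5 genes include 0, from Crybg1 at 0.47 (-0.04 to 0.97) and Zdhhc2 at 0.31 (-0.06 to 0.67) through Lgals2 at 0.15 (-0.29 to 0.58) and Tlcd4 at -0.04 (-0.48 to 0.39) to Alox12e at -0.40 (-0.98 to 0.17). With a fit of these 2 groups alone, Nrk passed (adjusted p = 0.0441), as did 0.0652% of all genes. In all, 5 genes were higher and 5 lower in the serial transplant group, with a median of 0.05. None of the 210 relatives passed at an adjusted p under 0.05 in limma, and 19 (9.05%) had an unadjusted p under 0.05.

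**Figure D4:**
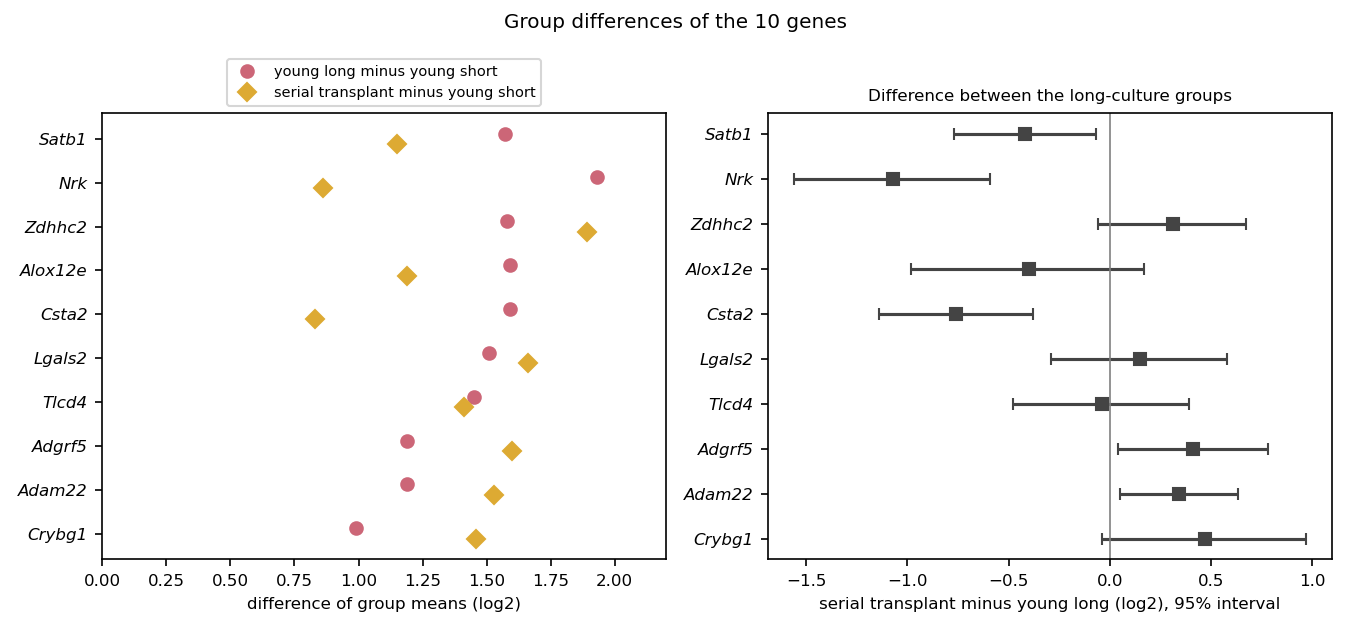
Left, difference of the group means from young short culture (log2) for young long culture (circles) and the serial transplant group (diamonds), which share the short-culture arrays. Right, serial transplant minus young long (log2) with its 95% interval from limma; Nrk, at -1.07, lies farthest from 0, and 5 intervals include 0.

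Replicates of a group did not scatter independently from gene to gene. Young short replicate 3 was the highest of its group in 10 of 10 genes and in 26.9% of all genes, and young short replicate 2 was the lowest in 8 of 10 and in 38.4% of all genes. Replicate 2 also had the highest fibroblast mean of its group, 10.62, and replicate 3 the lowest, 10.09. In the serial transplant group, replicate 2 exceeded replicate 1 in 8 of 10 genes, against 53.7% of all genes, with a lower fibroblast mean (8.92 against 9.52). Within both groups the array lowest in fibroblast markers was the highest in most of the 10 genes. The young long arrays had close fibroblast means (9.49, 9.50 and 9.47), and no single one was highest in most of the 10 genes. Core germ cell markers were lowest on young short replicate 2 (9.77) and highest on replicate 3 (10.03). In the serial transplant group they read 10.30 and 10.38. Markers of differentiating spermatogonia had the same order in both groups (8.57 and 8.89, then 9.31 and 9.41). Over young long replicates 1, 2 and 3, core germ cell markers read 9.80, 10.13 and 10.10. Those of differentiating spermatogonia read 9.16, 9.24 and 9.35. Replicate 1, the lowest in both lists, was the highest young long array for Satb1, Nrk, Alox12e, Csta2 and Tlcd4. Adgrf5 was highest on replicate 2, and Zdhhc2, Lgals2, Adam22 and Crybg1 on replicate 3. The part of fibroblast or germ cell RNA in this was not tested. Without young short replicate 2, the median difference between the young groups was 1.40.

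**Figure D5:**
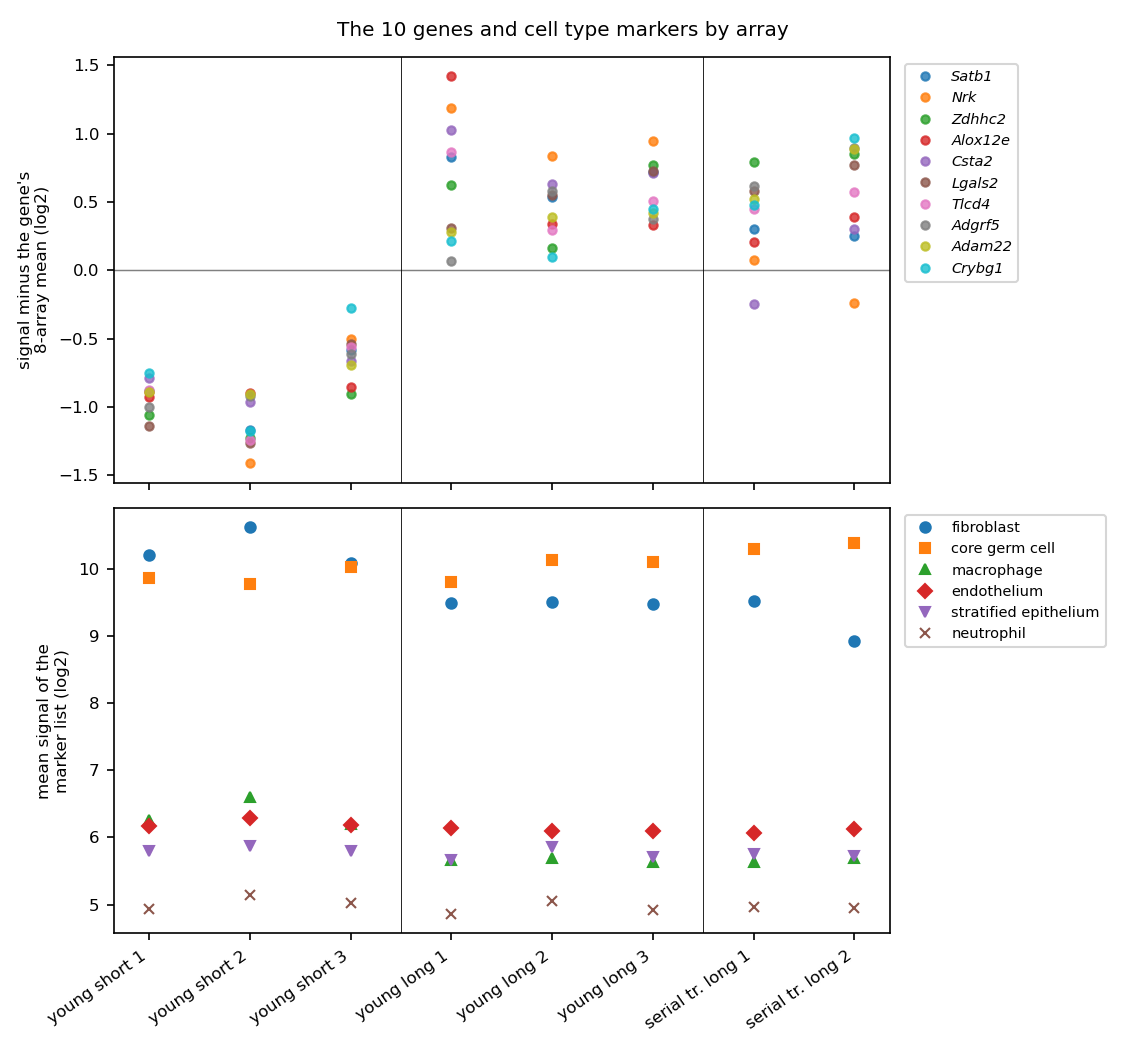
Top, signal of each of the 10 genes minus its own mean over the 8 arrays (log2). Bottom, mean signal (log2) of 6 marker lists on the same arrays. Within young short culture, replicate 2 has most of the lowest gene values, the highest fibroblast mean, 10.62, and the lowest core germ cell mean, 9.77.

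The 10 genes were also compared by profile. The measure was the root mean square difference between 2 genes' log2 profiles, each centred on its own mean over the 8 arrays. Profiles were not scaled, so it reflects the size of a change as well as its shape. The 10 were chosen for a step between short and long culture, so some likeness among them was set in advance. Within the 10, Adgrf5 and Adam22 were the most alike (0.12), followed by Satb1 and Tlcd4 (0.17), and Nrk was farthest from Adgrf5 and from Crybg1 (0.66 each). Among 18605 other genes, those nearest to Satb1 were Rragb (0.14) and Elovl7 (0.17), and Rragb (0.15) and Trpc1 (0.16) were nearest to Tlcd4. Nrk had no near match, with Peg10 at 0.30 and Flt3 at 0.31. Flt3 (0.16) and Nup62cl (0.28) were nearest to Alox12e, and Pde5a (0.18) and Grm4 (0.19) to Csta2. Zdhhc2 was nearest to Dmrt2 (0.19) and Trpc1 (0.29), and Lgals2 to Trpc1 (0.19) and Zfp872 (0.21). Prtg was nearest to both Adgrf5 (0.16) and Adam22 (0.13), with Agpat5 (0.18) and Ly6g6e (0.15) next. Crybg1 was nearest to Armh4 and Zfp872 (0.14 each). Trpc1 appears for 3 of them.

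The 10 genes lie on 9 chromosomes, with Satb1 and Adgrf5 both on chromosome 17. Of 60 flanking genes, the 3 nearest measured ones on each side of each gene, 7 rose (11.7%, against 6.1% of all genes) and 2 fell (3.33%, against 6.69%) in young long culture, with a median of 0.11. Those that rose include Esx1, 0.78 higher near Nrk on the X chromosome (adjusted p = 0.00741, limma), and Mtmr7, 0.60 higher near Zdhhc2. Dazl, an RNA-binding protein of germ cells, rose by 0.46 near Satb1 (adjusted p = 0.0254). Rnasek near Alox12e fell by 0.75 (adjusted p = 0.00995), and Steap4 near Adam22 fell by 1.70. Flanking genes were named after their values were seen.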

How the data were processed

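Per the labels' protocols, biotin-labelled cRNA of 8 samples was put on Affymetrix arrays. The authors deposited log2 signals, which the submitters' processing notes trace to RMA in Partek 6.4. Neither the settings nor the build of the probe annotation is given in the sources used here. They run from 2.42 to 14.81, with array medians from 6.90 to 6.98.

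Of 35557 identifiers, 6613 that precede the named ones in a run were taken as control probe sets and left out. Of the 28944 kept, 21789 carry 1 gene symbol, 1621 several and 5534 none. The first kind gave 19938 genes. Of its probe sets 21698 were found in RefSeq, and the rest kept the symbol of the array annotation. A gene with several probe sets (999 genes) was read from the brightest.

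Groups came from the labels. limma 3.58.1 in R 4.3.3 was fitted to all 8 arrays with 1 mean per group (residual degrees of freedom 5, prior 6.28). Tests were two-sided, p-values were adjusted by Benjamini-Hochberg over the 28944 probe sets, and the threshold was 0.05. The code was tested on simulated data. The number of arrays limits the precision. Named are all 10 genes, up to 4 relatives per family with the smallest p among those that passed, 8 fixed close relatives, the 2 genes most alike in profile, and Kit, Gfra1 and Ddx4; Lgi2, Ctsf, the stefins and the other marker genes were added after their values were seen. The 10 genes, the lists and the tests were chosen with earlier results of these data known. Same-numbered arrays of the young groups correlate at 0.08, 0.18 and 0.10, and those with the serial transplant group between -0.27 and -0.05, so numbers were not taken to pair samples. Alternatives left out each array, centred or quantile normalised the arrays, and changed the filter, the spread estimate, the groups fitted or the rule for probe sets.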

Additional observations from a re-analysis of the deposited data

How the results depend on the processing

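Because the 10 genes were chosen on these arrays by their difference between the young groups, a kept direction was largely set in advance. The differences kept their direction under every alternative run, which is a description only. Their median ranged from 1.40 to 1.64 when an array was left out, and was 1.59 with each array centred, 1.56 with quantile normalization and 1.54 averaged over probe sets. The median of serial transplant minus young short ranged from 1.23 to 1.58 without an array. Between the long cultures, the count of the 10 genes called was 0 under all alternatives but the fit of those 2 groups alone. There it was 1 (Nrk), and 0.0652% of all genes were called. In the limma fit of all arrays 5 of the 10 had an unadjusted p under 0.05, against 7.21% of all genes. That contrast shares the young long arrays on which the 10 were chosen. The 37 relatives called between the young groups became 12 to 40 when an array was left out (16 without young long replicate 1, 24 without replicate 2, 12 without replicate 3, and 23 without young short replicate 1), and lay between 31 and 46 under the other alternatives. No relative was called between the long cultures in limma under any alternative. In the limma fit of all arrays 19 of them (9.05%) had an unadjusted p under 0.05.

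With the replicate number as a block (replicate block), the medians were 1.54 and 1.53, 31 relatives were called and 0 of the 10 genes. Within families it took the risers among eicosanoid enzymes and among ADAM and LGI genes from 1 to 0 each and the palmitoylation genes that fell from 2 to 1. The galectin relatives that fell went from 6 to 4, and the ADAM and LGI genes that fell from 4 to 5. Risers among chromatin organisers and among adhesion receptors went from 3 to 2 each. The arrays share only a number, and not every same-numbered correlation exceeded 0.1. With 3 or 2 arrays a group, RMA values without detection calls and no scanner files, neither small differences nor signals near the lower quartiles can be told from background or array spread.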
